A study of Homo sapiens with 16 samples.

Results

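The 8 genes described here encode proteins through which a tumour cell signals to T cells, natural killer cells and macrophages: CD274 (PD-L1), PDCD1LG2 (PD-L2), CD276 (B7-H3), CD47, PVR (CD155), LGALS3 (galectin-3), LGALS9 (galectin-9) and TNFRSF14 (HVEM). They were taken by gene symbol from a table of 30813 genes, and each symbol matched 1 row. Their transcripts were followed by RNA sequencing in DR A375 and 451Lu BR, human BRAF-mutant melanoma cell lines that grow in the presence of MAPK pathway inhibitors, called A375 and 451Lu from here on. A375 off drug had its medium changed to DMSO for 6, 24 or 48 h, and A375 on drug was kept on dabrafenib (0.5 µM), which inhibits BRAF, with trametinib (0.05 µM), which inhibits MEK. 451Lu off drug was in DMSO for 24, 72 or 120 h, and 451Lu on drug was kept on dabrafenib (1 µM), although its source name gives resistance to both compounds. Each of the 8 groups had 2 libraries. Each line is 1 drug-resistant derivative. On-drug cells were sampled at a single point, so effects of withdrawal and of hours in culture cannot be told apart.

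Checkpoint ligands on tumour cells bind receptors on immune cells. PD-L1 and PD-L2 engage PD-1 and restrain T cells. PVR engages the inhibitory receptors TIGIT and CD96 and the activating receptor CD226, and HVEM binds the inhibitory receptor BTLA as well as the cytokine LIGHT (TNFSF14). CD47 binds SIRP alpha on macrophages and blocks engulfment, galectins bind sugar chains on surface receptors, and the receptor of B7-H3 is not settled. In melanoma, PD-L1 is known as a target of interferon gamma signalling and of blocking antibodies.

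Levels are CPM, counts relative to library size scaled by the trimmed mean of M values (TMM) within each line, and a change is a log2 fold change ± SE from edgeR's quasi-likelihood test. A gene was called at a Benjamini-Hochberg adjusted p under 0.05 over all genes tested in its line. Library totals ran from 10863255 to 16691725 counts in A375 and from 9714190 to 16447548 in 451Lu. Of the 8 members, 6 passed the filter on low counts in each line, and PDCD1LG2 and LGALS9 did not. Of 8 genes that report ERK output, between 6 and 7 rose in each of the 6 comparisons of off drug with on drug, among them DUSP6, a phosphatase induced by ERK. Of all genes tested, 35.1% to 36.6% rose in A375 and 29.2% to 37.3% in 451Lu. ETV5, another of the 8, was lower in all 6 comparisons. Its log2 changes were -1.79, -0.95 and -1.15 in A375 and -1.11, -0.72 and -0.74 in 451Lu, in order of time. SPRED1, also of the 8, was lower in A375 at 24 h (-0.37) and 48 h (-0.48). The labelled cell type was checked with 8 melanocyte lineage genes, all of which were tested in both lines and 7 or 8 of which fell in each comparison of off drug with on drug. Their summed level was 1020 to 3170 CPM in A375 off drug, against 5390 to 5530 CPM in A375 on drug, and 896 to 2430 CPM in 451Lu off drug, against 10700 to 11300 CPM in 451Lu on drug. Of 12 leukocyte markers, 7 had a row in the table and the other 5 were not analysed here. NKG7 was at 0 in every A375 library, and FCGR3A and PTPRC were at 0 in every 451Lu library. The sum of the 7 was 0.513 to 1.87 CPM in A375 off drug, against 3.02 to 3.84 CPM in A375 on drug, where PTPRC had 82 reads in all. It was 0.332 to 4.56 CPM in 451Lu off drug, where CSF1R had 15, 69 and 82 reads at 24, 72 and 120 h, against 0.258 to 0.332 CPM in 451Lu on drug. Summed markers of fibroblasts were 4.95 to 16.6 CPM in A375 off drug, against 23.2 to 23.7 on drug, and 31.8 to 58 CPM in 451Lu off drug, against 132 to 146 on drug. LUM, the most abundant of the 5, carried that decline. In 451Lu it fell (-2.39, -3.74 and -4.60 at 24, 72 and 120 h) while COL1A1 (2.69, 4.14 and 4.61), DCN (2.73, 4.43 and 5.34) and PDGFRB (3.56, 6.58 and 6.90) rose. In A375 LUM fell too (-0.58, -1.83 and -3.03), and COL1A1 rose at 24 h (1.13) and 48 h (1.80). Summed markers of endothelium were 0.0931 to 1.03 CPM in A375 off drug, against 1.06 to 1.17 on drug, and 1.6 to 111 CPM in 451Lu off drug, against 0.775 to 1.05 on drug (PECAM1). Those of epithelium were at most 0.379 CPM off drug in either line, against 0.686 to 1 CPM in A375 on drug and 9.3 to 11.2 CPM in 451Lu on drug (CDH1). The part that these shifts have in the changes of the members was not tested, and in these bulk samples fewer cells of a type and less RNA per cell cannot be told apart.

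In A375, 4 of the 6 members tested were higher at 6 h off drug and 1 was lower, where 35.1% and 38.1% of all genes tested went up and down. At 24 h off drug 4 were higher and 1 lower, where 36.2% of all genes were higher and 36.3% lower, and at 48 h 4 were higher and 2 lower, where 36.6% were higher and 36% lower. In 451Lu, 3 were higher and 3 lower at 24 h off drug, against 29.2% and 24.9% of all genes. At 72 h 3 were higher and 2 lower, against 34.2% and 33.4%, and at 120 h 3 were higher and 2 lower, against 37.3% and 36.6%. Calls in either direction took 73.3%, 72.6% and 72.6% of all genes in A375 at 6, 24 and 48 h and 54.1%, 67.7% and 73.8% in 451Lu at 24, 72 and 120 h, so a call alone sets no member apart. The median log2 change of the members tested was 0.80, 0.70 and 0.61 in A375 and 0.32, 0.37 and 0.21 in 451Lu, beside medians of all genes between -0.06 and 0.03. CD276 and PVR were higher than on drug in all 6 comparisons and TNFRSF14 was lower in all 6. The 3 comparisons of a line share their on-drug libraries, so their calls are not independent. The share of all genes called in the same direction in all 6 is not given here, so these runs of calls set no member apart.

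**Figure D1:**
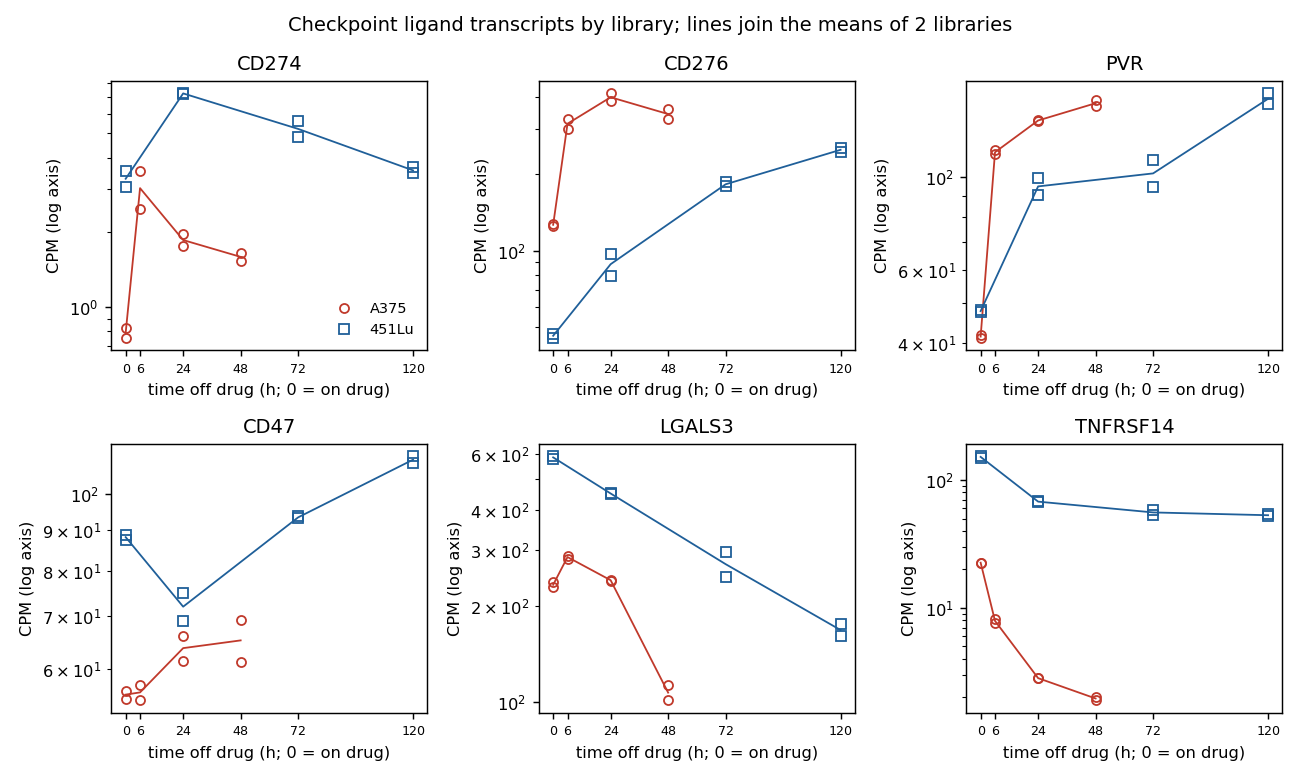
CPM of 6 members in each library (log axis) against hours off drug, where 0 is on drug; red circles are A375, blue squares are 451Lu, and lines join the means of 2 libraries. CD276 and PVR lie above on drug at every time and TNFRSF14 below it in both lines. The mean of CD274 is highest at the first time off drug and lower at each later time. CPM were scaled within each line, so levels are compared within a line only.

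**Figure D2:**
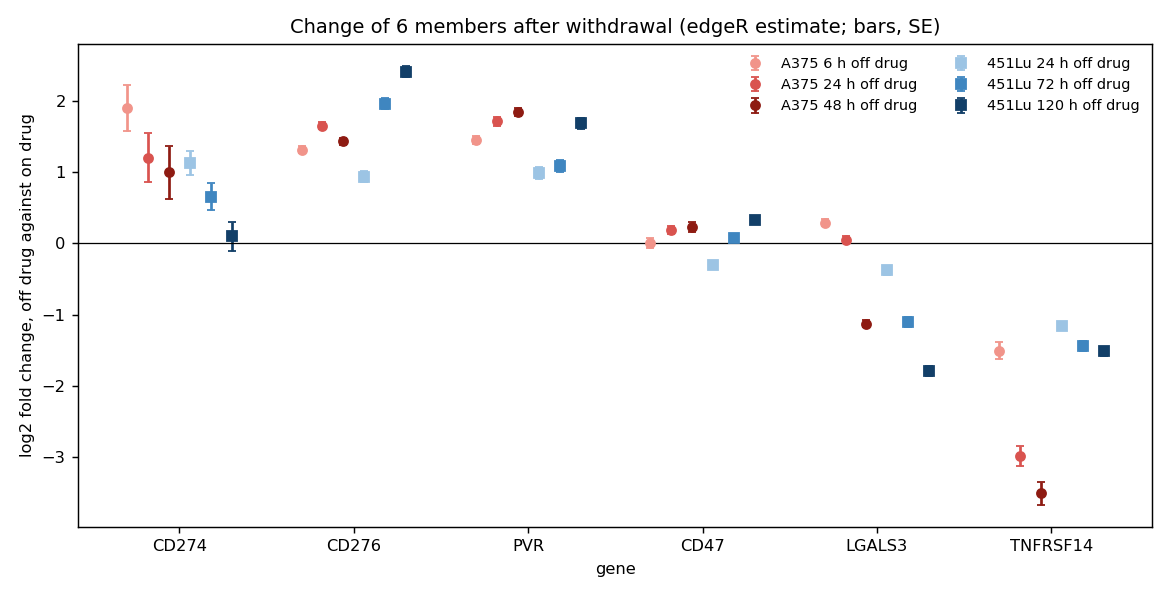
Log2 fold change of 6 members, off drug against on drug (points, edgeR estimates; bars, SE), for A375 at 6, 24 and 48 h (red circles, light to dark) and 451Lu at 24, 72 and 120 h (blue squares, light to dark). CD276 and PVR lie above 0 in all 6 comparisons and TNFRSF14 below 0 in all 6, at -3.52 in A375 at 48 h.

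Promoter windows of 300 bases, from 250 before to 50 after the start of the gene in RefSeq (GRCh38.p14), were found for 7 of the 8 members, with 2 windows for CD276; PDCD1LG2 had no entry. Both strands were searched for 5 short motifs: AP-1 (TGANTCA), STAT (TTCNNNGAA), IRF (GAAA, any 2 bases, GAAA), the M-box of MITF (TCATGTG) and TEAD (GGAATG). These letters stand in 7.72%, 7.66%, 3.57%, 2.93% and 14% of 34943 promoter windows. The windows of CD276, CD47 and LGALS3 held no match, and those of the 4 members with one are shown, since CD274 and LGALS9 share the IRF letters and PVR and TNFRSF14, which moved in opposite directions, share the TEAD letters. Capitals mark the matches. In CD274 (chr9:5450292-5450591, plus strand) they are a pair of overlapping IRF matches at positions -208 and -202 from the start, both on the opposite strand, where the printed letters read TTTC, 2 bases, TTTC, and a STAT match at -125. In LGALS9 (chr17:27630938-27631237, plus strand) it is an IRF match at -9 on the opposite strand. In PVR (chr19:44643660-44643959, plus strand) and TNFRSF14 (chr1:2556121-2556420, plus strand) it is a TEAD match, at -182 and -48. Positions count from the RefSeq start. The windows of LGALS9 and TNFRSF14 lie inside the genes as counted, which start at 27629798 and 2555639, so their matches are not upstream of those starts. No AP-1 or M-box match was found in the 4 windows shown. A match describes the letters and is not evidence of binding.
CD274: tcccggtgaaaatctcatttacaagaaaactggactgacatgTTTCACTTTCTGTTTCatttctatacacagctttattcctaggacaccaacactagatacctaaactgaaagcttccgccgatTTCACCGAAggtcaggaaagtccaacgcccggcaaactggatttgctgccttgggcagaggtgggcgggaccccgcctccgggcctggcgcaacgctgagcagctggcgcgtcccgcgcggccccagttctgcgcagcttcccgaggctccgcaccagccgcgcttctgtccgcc
LGALS9: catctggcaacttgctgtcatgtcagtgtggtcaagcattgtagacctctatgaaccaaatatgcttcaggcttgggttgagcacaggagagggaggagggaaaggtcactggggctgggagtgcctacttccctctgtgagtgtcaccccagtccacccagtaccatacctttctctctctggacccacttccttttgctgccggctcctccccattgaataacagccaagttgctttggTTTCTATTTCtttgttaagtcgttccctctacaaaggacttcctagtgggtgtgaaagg
PVR: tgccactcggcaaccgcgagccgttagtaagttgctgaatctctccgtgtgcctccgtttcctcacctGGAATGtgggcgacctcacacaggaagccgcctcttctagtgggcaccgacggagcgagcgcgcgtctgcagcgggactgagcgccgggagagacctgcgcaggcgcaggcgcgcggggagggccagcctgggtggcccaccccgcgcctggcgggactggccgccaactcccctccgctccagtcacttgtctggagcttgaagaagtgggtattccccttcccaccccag
TNFRSF14: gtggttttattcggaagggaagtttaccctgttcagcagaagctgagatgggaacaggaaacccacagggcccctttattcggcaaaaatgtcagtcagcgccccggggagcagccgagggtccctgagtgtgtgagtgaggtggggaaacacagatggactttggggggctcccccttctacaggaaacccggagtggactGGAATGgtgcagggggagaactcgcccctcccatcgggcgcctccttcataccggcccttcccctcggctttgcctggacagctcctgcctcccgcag

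CD274 (ENSG00000120217, chr9:5450503-5470566 in GRCh38) was higher than on drug at the first time off drug in both lines. At each later time CD274 had a lower mean level than at the time before. In A375 it had 0.826 and 0.755 CPM on drug, 2.49 and 3.54 CPM at 6 h, 1.76 and 1.97 CPM at 24 h and 1.66 and 1.53 CPM at 48 h. All 6 A375 libraries off drug lay above both on drug. These levels rest on 25 reads in all on drug and 66, 51 and 35 reads at 6, 24 and 48 h. The log2 change off drug against on drug was 1.91 ± 0.32 at 6 h (3.75-fold higher, adjusted p = 2.58e-06), a rise that 3.59% of all genes tested matched or exceeded. It was 1.21 ± 0.34 at 24 h (adjusted p = 0.00204) and 1.00 ± 0.37 at 48 h (adjusted p = 0.0172). The call at 48 h was lost with DESeq2 (adjusted p = 0.106) and without either on-drug library (adjusted p = 0.0507 without replicate 1 and 0.0664 without replicate 2) or replicate 1 at 48 h (0.0721). From 24 h to 48 h off drug CD274 was not called (-0.21 ± 0.32, adjusted p = 0.671). Between 24 h and 6 h off drug CD274 was lower by a log2 change of -0.70 ± 0.27 (adjusted p = 0.0238). This call was lost with DESeq2 (adjusted p = 0.223), and the change was -0.43 (0.307) without replicate 2 at 6 h and -0.60 (0.147) without replicate 1 at 24 h.

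In 451Lu, CD274 had 3.04 and 3.54 CPM on drug, 7.25 and 7.23 CPM at 24 h, 4.84 and 5.59 CPM at 72 h and 3.45 and 3.65 CPM at 120 h. The 24 h libraries were the highest, and those at 120 h overlapped the libraries on drug. The log2 change against on drug was 1.13 ± 0.17 at 24 h (2.19-fold higher, adjusted p = 3.95e-05) and 0.66 ± 0.19 at 72 h (adjusted p = 0.00663). These rises were matched or exceeded by 8.79% and 22.2% of all genes tested. At 120 h the log2 change was 0.10 ± 0.20 (adjusted p = 0.671), so a difference from on drug was not detectable. The call at 72 h was lost with DESeq2 (adjusted p = 0.0953) and without replicate 2 at 72 h (log2 change 0.51, adjusted p = 0.0925). The falls of -0.47 ± 0.18 at 72 h against 24 h (adjusted p = 0.0366) and of -0.56 ± 0.20 at 120 h against 72 h (adjusted p = 0.0467) were called too. Each of these 2 calls was lost with DESeq2 (adjusted p = 0.285 and 0.264), the second also with no filter on low counts (0.0651), and when any 1 of the 4 libraries compared was left out, with adjusted p from 0.0554 to 0.249.

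PDCD1LG2 (chr9:5510570-5571254), which encodes the other ligand of PD-1, was close to the limit of detection. In A375 it had 0 and 0 reads on drug, 2 and 1 reads at 6 h, 0 and 0 at 24 h and 1 and 0 at 48 h. In 451Lu it had 1 and 0 reads on drug, 7 and 3 reads at 24 h, 4 and 8 at 72 h and 3 and 2 at 120 h. All 6 of the 451Lu libraries off drug held more reads than either library on drug. Against the single read on drug, the ratio of CPM was 12.7 at 24 h (95% counting interval 1.81 to 552), 20.3 at 72 h (3 to 867) and 7.17 at 120 h (0.802 to 339). LGALS9 (chr17:27629798-27649560), a galectin known as a ligand of TIM-3, had 0 to 3 reads in any A375 library and 0 to 1 in any 451Lu library. Its reads can also be shared with its near-identical copies, so LGALS9 was not compared between groups.

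**Figure D3:**
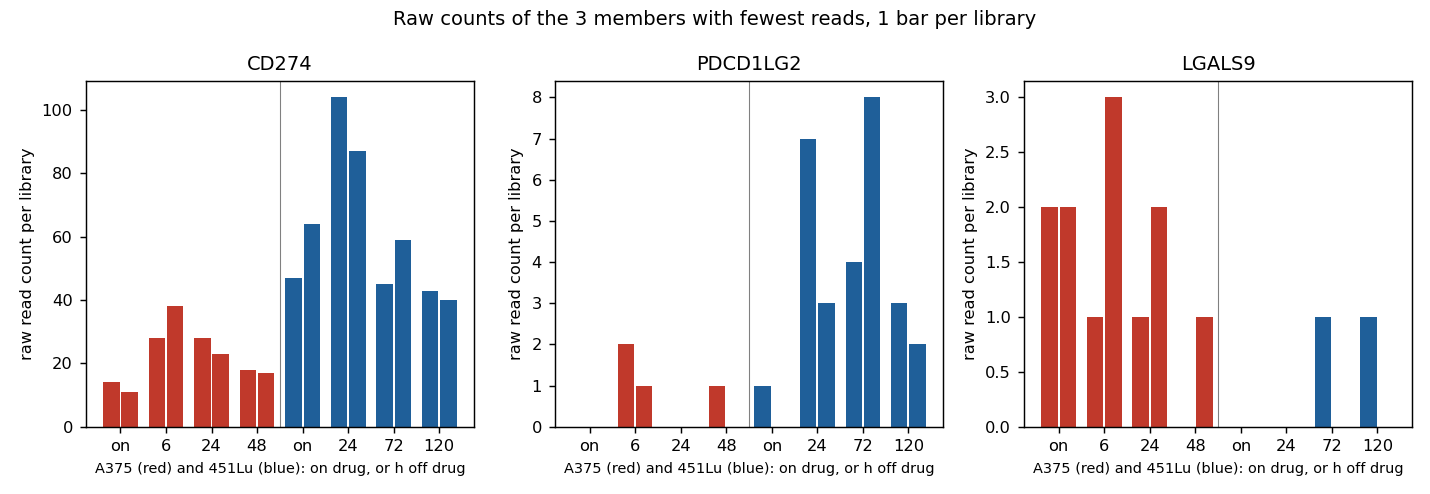
Raw read counts of the 3 members with the fewest reads, 1 bar per library, for A375 (red) and 451Lu (blue), on drug and at the hours off drug on the horizontal axis. CD274 reaches 104 reads, PDCD1LG2 8 and LGALS9 3; PDCD1LG2 is at 0 in both A375 libraries on drug.

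CD276 (ENSG00000103855, chr15:73683966-73714518), a B7 family protein that is abundant on many tumours, rose in every comparison of off drug with on drug. In A375 it had 127 and 125 CPM on drug, 328 and 301 CPM at 6 h, 414 and 385 CPM at 24 h and 327 and 359 CPM at 48 h. The 451Lu libraries had 45.5 and 47.2 CPM on drug, 97.1 and 79.9 CPM at 24 h, 185 and 179 CPM at 72 h and 253 and 244 CPM at 120 h. The groups off drug and on drug did not overlap in either line. In A375 most of the rise was present at 6 h, whereas in 451Lu each later time was higher than the one before. The log2 change in A375 was 1.32 ± 0.05 at 6 h (adjusted p = 1.35e-21), 1.66 ± 0.05 at 24 h (7.93e-25) and 1.44 ± 0.05 at 48 h (7.86e-23). In 451Lu it was 0.94 ± 0.08 at 24 h (adjusted p = 5.63e-08), 1.97 ± 0.08 at 72 h (1.81e-12) and 2.42 ± 0.08 at 120 h (7.19e-14), which is 5.36-fold higher than on drug. Of all genes tested, 4.75% rose as far in A375 at 24 h and 7.23% in 451Lu at 120 h. Between times, CD276 in A375 was higher at 24 h than at 6 h (log2 change 0.35, adjusted p = 1.91e-07) and lower at 48 h than at 24 h (-0.22, 0.000779). In 451Lu it was higher at 72 h than at 24 h (1.04, 1.46e-08) and higher at 120 h than at 72 h (0.45, 0.000192).

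PVR (ENSG00000073008, chr19:44643798-44663583), the ligand of TIGIT, CD96 and CD226, was also higher off drug throughout. In A375 it had 41.2 and 41.8 CPM on drug, 116 and 113 CPM at 6 h, 136 and 137 CPM at 24 h and 147 and 153 CPM at 48 h. The 451Lu libraries had 47.9 and 47.6 CPM on drug, 99.2 and 90.6 CPM at 24 h, 109 and 94.3 CPM at 72 h and 158 and 149 CPM at 120 h. Every library off drug was above every library on drug of its line. The log2 change was 1.46 ± 0.06, 1.72 ± 0.06 and 1.85 ± 0.06 in A375 at 6, 24 and 48 h (adjusted p = 8.06e-22, 2.26e-24 and 2.7e-25). In 451Lu it was 0.99 ± 0.08, 1.09 ± 0.08 and 1.69 ± 0.08 at 24, 72 and 120 h (adjusted p = 1.54e-08, 3.02e-09 and 4.66e-12). As many as 5.68%, 4.53% and 4.66% of all genes tested rose as far in A375, and 10.1%, 14.5% and 11.1% in 451Lu. In 451Lu PVR was not called between 72 h and 24 h (0.10 ± 0.08, adjusted p = 0.292) and was higher at 120 h than at 72 h (0.60 ± 0.07, 1.54e-05). In A375 it was higher at 24 h than at 6 h (0.25 ± 0.05, 5.35e-05). Its change from 24 h to 48 h in A375 was 0.14 ± 0.05 (adjusted p = 0.0336), and this call was lost with DESeq2 (adjusted p = 0.21). It was also lost without replicate 1 at 24 h (adjusted p = 0.155), replicate 2 at 24 h (0.113) or replicate 2 at 48 h (0.173). PVR is overlapped by 2 genes, CEACAM19 with 0 to 34 reads and an antisense transcript with 0 to 7 reads in any library, against 609 to 2165 reads of PVR.

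TNFRSF14 (ENSG00000157873, chr1:2555639-2565382), which encodes HVEM, had the furthest fall among the members in A375. It had 22.5 and 22.6 CPM on drug, 7.65 and 8.19 CPM at 6 h, 2.83 and 2.82 CPM at 24 h and 2.03 and 1.89 CPM at 48 h. The groups did not overlap, and the 48 h libraries were the lowest. The log2 change was -1.51 ± 0.12 at 6 h (adjusted p = 9.09e-14), -2.99 ± 0.14 at 24 h (6.04e-20) and -3.52 ± 0.16 at 48 h (4.13e-20). The last of these is 11.5-fold lower than on drug, and 0.9% of all genes tested were as far down. In 451Lu TNFRSF14 had 149 and 154 CPM on drug, 68.4 and 67.2 CPM at 24 h, 53.4 and 58.2 CPM at 72 h and 52.2 and 53.9 CPM at 120 h. The log2 change there was -1.16 ± 0.06 at 24 h (adjusted p = 1.2e-10), -1.44 ± 0.07 at 72 h (7.68e-12) and -1.52 ± 0.06 at 120 h (2.14e-12). Falls as large were seen in 5.71%, 6.5% and 8.5% of all genes tested in 451Lu. The 451Lu groups off drug were all below those on drug, and 72 h and 120 h overlapped each other. A transcript that overlaps the start of TNFRSF14, RP3-395M20.8, had 4 and 1 reads in A375 at 6 h, 3 and 0 at 24 h and 1 and 2 at 48 h, against 20 and 16 reads in A375 on drug. In 451Lu it had 27 and 27 reads at 24 h, 28 and 33 at 72 h and 46 and 28 at 120 h, against 155 and 199 reads in 451Lu on drug. The strand setting of the counting is not given, so reads of the 2 genes cannot be told apart where they overlap.

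TNFSF14, which encodes LIGHT, a ligand of HVEM made mainly by activated lymphocytes, went the opposite way. In A375 no read was found on drug, and 3 and 4 reads were found at 6 h, 24 and 6 at 24 h and 11 and 17 at 48 h. Summed over the group and set against a floor of 3 reads over the on-drug group, TNFSF14 was at least 3.35-fold higher at 6 h (adjusted p = 0.00473), at least 11.4-fold higher at 24 h (1.95e-06) and at least 13.4-fold higher at 48 h (9.02e-07). The libraries at 24 h differed, and replicate 1 or 2 alone gave at least 15.9-fold or 5.4-fold. With counting error in both groups, the 95% interval began at 2.07, 8.73 and 10.2 at 6, 24 and 48 h. In 451Lu 1 read was found on drug and 11, 142 and 608 at 24, 72 and 120 h. The mean level at 120 h was 25.8 ± 4.69 CPM, against 0.0323 ± 0.0457 CPM on drug (SD, n = 2 each). The ratio to on drug was 14 at 24 h (95% counting interval 2.04 to 603), 240 at 72 h (42.4 to 9550) and 872 at 120 h (156 to 34500), with adjusted p of 0.0176, 4.94e-09 and 3.01e-12. The 24 h call in 451Lu was lost without replicate 2 on drug (adjusted p = 0.131) or replicate 1 at 24 h (0.165).

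**Figure D4:**
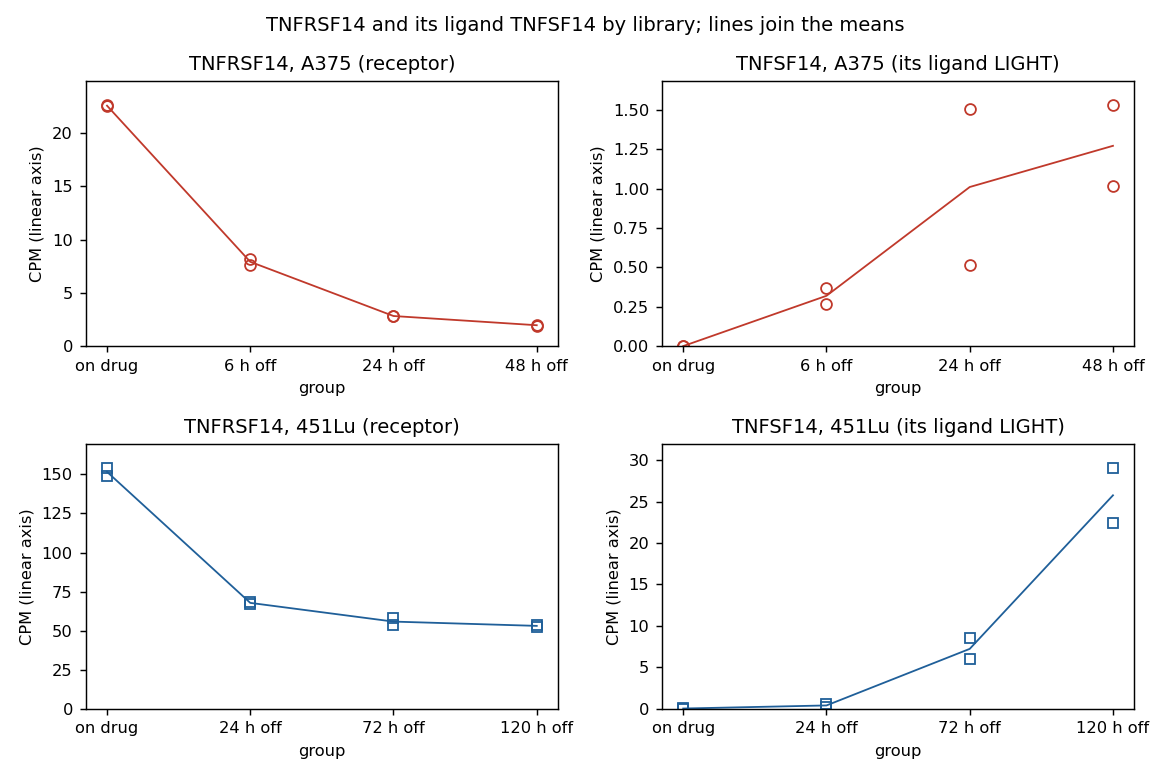
CPM (linear axes that start at 0) of TNFRSF14 (left) and TNFSF14 (right) in each library of A375 (top) and 451Lu (bottom), on drug and at 3 times off drug; lines join the means. In both lines TNFRSF14 lies below on drug and TNFSF14 above it at every time off drug. Most of the drop of TNFRSF14 in 451Lu is present at 24 h. The axes differ between panels, and the mean of TNFSF14 is 1.27 CPM in A375 at 48 h and 25.8 CPM in 451Lu at 120 h.

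CD47 (ENSG00000196776, chr3:108043298-108091025), the "do not eat me" signal, moved least. In A375 it had 55.0 and 56.3 CPM on drug, 54.7 and 57.3 CPM at 6 h, 61.5 and 66.1 CPM at 24 h and 69.2 and 61.2 CPM at 48 h. In 451Lu it had 87.6 and 88.9 CPM on drug, 69.1 and 74.9 CPM at 24 h, 93.2 and 93.7 CPM at 72 h and 112 and 109 CPM at 120 h. The groups off drug lay above on drug at 24 and 48 h in A375, and in 451Lu below it at 24 h and above it at 72 and 120 h. The log2 change in A375 was 0.01 ± 0.07 at 6 h (adjusted p = 0.904), 0.19 ± 0.06 at 24 h (0.00744) and 0.23 ± 0.07 at 48 h (0.00231). The call at 24 h was lost without replicate 1 on drug (adjusted p = 0.0572) or replicate 2 at 24 h (0.0726), and that at 48 h without replicate 1 at 48 h (0.15, adjusted p = 0.075). In 451Lu the log2 change was -0.30 ± 0.06 at 24 h (adjusted p = 0.00075), 0.08 ± 0.06 at 72 h (0.247) and 0.33 ± 0.06 at 120 h (0.000135). Between times CD47 was higher at 24 h than at 6 h in A375 (0.18, adjusted p = 0.016), and in 451Lu at 72 h than at 24 h (0.38, 0.000127) and at 120 h than at 72 h (0.24, 0.00699). The A375 call was lost with DESeq2 (adjusted p = 0.138) and without replicate 1 at 6 h (0.143) or replicate 2 at 24 h (0.124). The last 451Lu call was lost without replicate 2 at 72 h (adjusted p = 0.0575) or replicate 1 at 120 h (0.0572). SIRPA, which encodes the macrophage receptor of CD47 and is also made by melanocytic cells, fell in all 6 comparisons, with log2 changes of -0.51, -1.55 and -1.89 in A375 and -1.97, -1.82 and -1.34 in 451Lu (adjusted p from 4.39e-24 to 2.59e-10). Its mean level was 38.6 ± 3.16 CPM in A375 at 48 h, against 143 ± 6.88 CPM on drug, and 314 ± 5.9 CPM in 451Lu at 120 h, against 796 ± 28.1 CPM on drug (SD, n = 2 each). THBS1, which encodes thrombospondin-1, a secreted ligand of CD47, differed in its course between times. In A375 it rose at 6 h (log2 change 4.03 ± 0.10, adjusted p = 2.02e-27) and was lower than on drug at 24 h (-1.44 ± 0.23, 8.69e-07) and 48 h (-1.67 ± 0.25, 4.03e-07). In 451Lu it was higher at 24, 72 and 120 h (1.98, 3.44 and 2.68, adjusted p = 2.89e-06, 4.01e-10 and 1.38e-08).

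LGALS3 (ENSG00000131981, chr14:55124110-55145413), which encodes galectin-3, was the most abundant member per length in 7 of the 8 groups. It was lower than on drug at 48 h in A375 and at all 3 times in 451Lu. In A375 it had 238 and 229 CPM on drug, 282 and 288 CPM at 6 h, 242 and 240 CPM at 24 h and 101 and 113 CPM at 48 h. In 451Lu it had 592 and 580 CPM on drug, 450 and 453 CPM at 24 h, 247 and 295 CPM at 72 h and 161 and 175 CPM at 120 h. The A375 libraries were highest at 6 h and lowest at 48 h, and the 451Lu libraries stepped down at each time without overlap. The log2 change in A375 was 0.29 ± 0.05 at 6 h (adjusted p = 1.98e-06), 0.05 ± 0.05 at 24 h (0.377) and -1.13 ± 0.05 at 48 h (7.22e-20). Its fall of -1.17 ± 0.05 at 48 h against 24 h (adjusted p = 6.76e-19) was matched or exceeded by 1.34% of all genes tested. In 451Lu the log2 change was -0.38 ± 0.07 at 24 h (adjusted p = 0.000249), -1.11 ± 0.07 at 72 h (7.37e-10) and -1.80 ± 0.07 at 120 h (1.32e-12), which is 3.49-fold lower than on drug. Of the 13 entries of the galectin list, 7 were in the table and 4 were tested. LGALS1, which encodes galectin-1, was higher than on drug at every time at which LGALS3 was lower. Its log2 change was -0.03 (adjusted p = 0.63), 0.60 and 1.24 in A375 and 0.70, 1.35 and 1.07 in 451Lu. LGALS8 (galectin-8) rose in 451Lu by 1.1, 2.18 and 2.60, to a mean of 136 ± 3.4 CPM at 120 h, against 22.4 ± 0.535 CPM on drug (SD, n = 2 each). In A375 its values were -0.06 (adjusted p = 0.65), 0.24 (0.0348) and 0.25 (0.0365). These last 2 calls were lost with DESeq2, without the filter on low counts and without any 1 library on drug or of the time compared, except replicate 2 at 48 h. LGALS3BP, which encodes a secreted glycoprotein bound by galectin-3, fell in A375, with log2 changes of -0.53, -0.34 and -0.90, and in 451Lu at 24 h (-0.85), with -0.12 (adjusted p = 0.0583) at 72 h and 0.31 (8.74e-05) at 120 h.

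The steps between neighbouring times off drug called 3 members higher (CD276, CD47 and PVR) and 3 lower (CD274, LGALS3 and TNFRSF14) in A375 at 24 h against 6 h, where 35.5% and 34.2% of all genes tested were higher and lower. At 48 h against 24 h in A375, 1 was higher (PVR) and 2 were lower (CD276 and LGALS3), against 14.2% and 15.7% of all genes. In 451Lu at 72 h against 24 h, 2 were higher (CD276 and CD47) and 3 lower (CD274, LGALS3 and TNFRSF14), against 25.9% and 25.5%. At 120 h against 72 h, 3 were higher (CD276, CD47 and PVR) and 2 lower (CD274 and LGALS3), against 16.6% and 16.1%. Calls in either direction were 69.8%, 29.9%, 51.4% and 32.7% of all genes in these 4 steps.

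On drug, the lines differed in all 6 members tested, 1 higher and 5 lower in A375, where 37.9% of all genes tested were higher and 39.3% lower (77.2% in either direction). Line and drug cannot be told apart in this contrast, and here CPM were scaled over all 16 libraries. CD276 averaged 118 ± 1.51 CPM in A375 and 48.8 ± 1.11 CPM in 451Lu (SD, n = 2 each; log2 difference 1.28 ± 0.08, adjusted p = 2.55e-14). TNFRSF14 averaged 21.1 ± 0.0314 CPM in A375 and 160 ± 3.47 CPM in 451Lu (-2.92 ± 0.06, 1.75e-23). CD274 averaged 0.739 ± 0.0484 CPM in A375 and 3.46 ± 0.364 CPM in 451Lu (-2.21 ± 0.27, 3.07e-08). LGALS3 (-1.50), CD47 (-0.84) and PVR (-0.37) were also lower in A375, with adjusted p from 2.11e-17 to 4.16e-05. At 24 h, the one time off drug that both lines share, 5 of the 6 members changed by different amounts in the lines, 4 with a higher and 1 with a lower value in A375, against 27.4% and 22% of all genes (49.4% in either direction). The difference in log2 change, A375 minus 451Lu, was 0.79 for CD276, 0.79 for PVR, 0.55 for CD47, 0.49 for LGALS3 and -1.77 for TNFRSF14. For CD274 it was 0.15 ± 0.35 (adjusted p = 0.799), an estimate whose SE is wide, which does not show that the lines responded alike.

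Per kilobase of exon, with CPM scaled over all 16 libraries and lengths from GENCODE 29, the order of members differed between the lines. In A375 on drug LGALS3 had 154 CPM per kb and CD276 26.5, followed by PVR and TNFRSF14 (both 11) and CD47 (9.85), with CD274 at 0.201 and LGALS9 at 0.0383. PVR and TNFRSF14 changed places when the longest transcript gave the length, so their order is not settled. By 48 h off drug CD276 (73.7 ± 5.02 CPM per kb) stood beside LGALS3 (72.0 ± 5.75), a gap within their SD, then PVR (40.8), CD47 (11.8), TNFRSF14 (0.974) and CD274 (0.414). In 451Lu on drug LGALS3 had 434 CPM per kb, TNFRSF14 82.8, CD47 17.6, PVR 14.3, CD276 11 and CD274 0.939. At 120 h off drug the order in 451Lu was LGALS3 (126), CD276 (59.4), PVR (46.4), TNFRSF14 (29.3), CD47 (22.3), CD274 (1.02), PDCD1LG2 (0.0952) and LGALS9 (0.0138). CD274 thus stayed below CD47, PVR, CD276 and LGALS3 in every group per length.

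Over the 8 group means, each line centred on its own mean of log2 CPM, CD276 and PVR had a Pearson r of 0.92, PVR and TNFRSF14 of -0.90 and CD276 and TNFRSF14 of -0.77. CD274 had its highest r with PVR, 0.56. Points of 1 line share libraries and scaling, and these values are descriptions over 8 points. The genes with the course most like each member, among about 7375 candidates, were RCAN1 and RFK for CD274 (r = 0.9793 and 0.9784), SEC14L2 and PTGS1 for CD276 (0.9949 and 0.9945) and IL27RA and SLC25A37 for PVR (0.9947 and 0.9939). They were HFM1 and KAT2B for TNFRSF14 (0.9936 and 0.9897), GK and KIAA1598 for LGALS3 (0.9779 and 0.9584) and HAPLN3 and CLIC4 for CD47 (0.9781 and 0.9759). With 8 points and this many candidates, high values of r are reached easily.

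Among 13 genes of interferon gamma signalling, which is known to induce CD274, IFNGR2, a receptor chain, rose in all 6 comparisons, by 1.53, 1.31 and 1.28 in A375 and 1.25, 1.88 and 2.17 in 451Lu (adjusted p from 8.36e-20 to 3.41e-11). IRF1 is one of the factors that the IRF letters are named for, and its binding to the CD274 window was not measured. In A375 IRF1 averaged 7.21 ± 0.274 CPM on drug, 9.28 ± 0.0378 CPM at 6 h, 7.86 ± 0.348 CPM at 24 h and 7.98 ± 1.1 CPM at 48 h. It was called at 6 h (log2 change 0.37, adjusted p = 0.0232) and not at 24 h (0.13, 0.405) or 48 h (0.15, 0.383). In 451Lu IRF1 averaged 4.04 ± 0.144 CPM on drug, 17.0 ± 3.04 CPM at 24 h, 27.0 ± 0.0427 CPM at 72 h and 30.9 ± 1.63 CPM at 120 h (SD, n = 2 each), with log2 changes of 2.08, 2.74 and 2.93 (adjusted p = 4.76e-09, 4.82e-11 and 8.02e-12). IRF1 was thus highest in 451Lu at 120 h. Whether IRF1 has a part in the changes of CD274 was not tested. SOCS1, an inhibitor of JAK signalling, had 2, 3 and 8 reads in A375 at 6, 24 and 48 h, against 3 on drug, and rose in 451Lu to 84, 114 and 63 reads at 24, 72 and 120 h, against 7 on drug. JAK2, a kinase of the receptor and a neighbour of CD274, fell in 451Lu (-1.47, -1.03 and -1.04) and in A375 at 6 h (-0.70). STAT2 fell in A375 at all 3 times (-1.81, -0.80 and -0.78). Over the list, 6 of the 11 genes tested in A375 rose at 6 h and 5 fell, 4 and 3 at 24 h, and 4 and 4 at 48 h, and in 451Lu 9, 8 and 9 of 13 rose and 3, 3 and 1 fell at 24, 72 and 120 h. These counts stand beside 35.1%, 36.2% and 36.6% of all genes tested that were higher and 38.1%, 36.3% and 36% that were lower in A375, and 29.2%, 34.2% and 37.3% higher and 24.9%, 33.4% and 36.6% lower in 451Lu. The list median was 0.22, -0.01 and -0.08 in A375 and 0.41, 0.43 and 0.54 in 451Lu.

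A list of 19 other genes known to regulate the members, such as AP-1 subunits, MYC, HIF1A and the PD-L1 stabiliser CMTM6, was tested whole in both lines. In A375 15, 10 and 10 rose and 2, 3 and 3 fell at 6, 24 and 48 h, and in 451Lu 8, 10 and 13 rose and 6, 6 and 5 fell at 24, 72 and 120 h. Of all genes tested, 35.1% to 36.6% were higher and 36% to 38.1% lower in A375, and 29.2% to 37.3% higher and 24.9% to 36.6% lower in 451Lu. The medians of the list were 0.37, 0.17 and 0.21 in A375 and 0.04, 0.23 and 0.37 in 451Lu. FOSL1 and JUNB, which encode AP-1 subunits, rose in all 6 comparisons. FOSL1 rose most at the first time in each line, by 3.95 ± 0.08 in A375 at 6 h and 2.80 ± 0.08 in 451Lu at 24 h, and was 1.01 ± 0.09 at 120 h. JUNB rose by 1.66, 3.15 and 3.21 in A375 and by 1.35, 2.22 and 2.38 in 451Lu. ZFP36, which encodes tristetraprolin, a protein that promotes decay of AU-rich transcripts including that of CD274, rose by 1.65, 3.59 and 3.49 in A375 and by 1.77, 1.98 and 1.90 in 451Lu. HIF1A rose by 1.69, 2.22 and 2.51 in 451Lu, and by 0.96, 0.62 and 0.59 in A375. MYC rose in A375 by 0.16, 1.78 and 1.75 and fell in 451Lu (-0.48, -0.71 and -1.34).

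SIRPA, the receptor of CD47, had 4500 reads in A375 on drug and 26762 in 451Lu on drug. The other receptors of the members on immune cells had few reads. Of 14 receptors and partners, 5 were tested in A375 and 4 in 451Lu, and PDCD1, TIGIT, BTLA, CD160 and SIRPG had 0 to 2 reads in any group. CD96, a receptor of PVR, had 188 reads over the 2 libraries in A375 at 48 h (8.56 ± 0.889 CPM), against 85 on drug (2.70 ± 0.0628 CPM; SD, n = 2 each), a log2 change of 1.66 ± 0.19 (adjusted p = 1.2e-09). It was not called at 6 h (-0.19, 0.514) or 24 h (-0.41, 0.139), and in 451Lu it had 1 to 6 reads in any group. RGMB, which encodes a binding partner of PD-L2, rose in A375 by 1.69, 0.84 and 0.81 and in 451Lu by 0.84 at 72 h and 0.74 at 120 h, with 0.06 (adjusted p = 0.549) at 24 h. In all, 3, 2 and 3 of the 5 genes rose and 1, 2 and 2 fell in A375 at 6, 24 and 48 h, and 2, 3 and 3 of the 4 rose and 1, 1 and 1 fell in 451Lu at 24, 72 and 120 h, where 35.1% to 36.6% of all genes tested rose and 36% to 38.1% fell in A375 and 29.2% to 37.3% rose and 24.9% to 36.6% fell in 451Lu.

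Of 23 other checkpoint and costimulatory ligands, 13 were tested in A375 and 12 in 451Lu. In A375 5, 9 and 9 rose and 3, 2 and 3 fell at 6, 24 and 48 h, and in 451Lu 7, 7 and 9 rose and 2, 2 and 2 fell at 24, 72 and 120 h. Between 35.1% and 36.6% of all genes tested rose in A375 and between 29.2% and 37.3% in 451Lu, and 36% to 38.1% and 24.9% to 36.6% fell. The list medians were 0.06, 0.52 and 0.57 in A375 and 0.49, 0.74 and 1.05 in 451Lu. CD70, the ligand of CD27, rose in all 6, by 0.55, 1.60 and 1.04 in A375 and 2.78, 3.09 and 3.94 in 451Lu. In A375 at 6 h it had 90 reads, against 88 on drug. The libraries there overlapped, with 5.07 and 3.07 CPM at 6 h and 3.25 and 2.26 CPM on drug. In 451Lu it had 61, 57 and 121 reads at 24, 72 and 120 h, against 11 on drug. TNFSF9, the ligand of 4-1BB, fell in A375 at 6 h (-1.50 ± 0.26, adjusted p = 5.73e-06) and rose at 24 h (0.50) and 48 h (0.46). In 451Lu it rose by 1.69, 2.82 and 3.39. TNFSF4, the ligand of OX40, fell in A375 (-1.62, -1.48 and -1.86), and in 451Lu its value was -0.01 at 24 h and it rose by 1.72 at 72 h and 1.83 at 120 h. The calls on TNFSF4 in A375 at 6 and 24 h and in 451Lu at 72 and 120 h were lost with DESeq2 (adjusted p = 0.0528, 0.0653, 0.127 and 0.0894). In 451Lu they were also lost at 72 h without replicate 2 on drug (0.08) or replicate 1 at 72 h (0.057) and at 120 h without replicate 1 at 120 h (0.0732). CEACAM1, a ligand of TIM-3, fell in 451Lu (-2.55, -3.03 and -2.38). PVRL3, a relative of PVR that also binds TIGIT, rose in all 6 comparisons, by 0.55, 0.21 and 0.39 in A375 and 0.78, 0.72 and 1.04 in 451Lu. PVRL4 rose in A375 at 24 h (1.99) and 48 h (2.02), on 32 and 26 reads, against 9 on drug.

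CD274 and PDCD1LG2 lie beside each other on chromosome 9, and 38 genes of the table start within 1 Mb of the start of CD274, of which 16 were tested in each line. In A375 6, 9 and 7 of the 16 were higher and 7, 4 and 3 lower at 6, 24 and 48 h, and in 451Lu 6, 10 and 8 were higher and 4, 5 and 5 lower at 24, 72 and 120 h. As shares of all genes tested, 35.1% to 36.6% were higher and 36% to 38.1% lower in A375, against 29.2% to 37.3% and 24.9% to 36.6% in 451Lu. PLGRKT, a plasminogen receptor gene at -92.5 kb from the start of CD274, changed by -0.35 (adjusted p = 0.012), -0.04 (0.756) and -0.36 (0.0102) in A375, where CD274 was called higher at all 3 times. The calls on PLGRKT at 6 and 48 h were lost with DESeq2 (adjusted p = 0.207 and 0.162), without replicate 1 on drug (0.111 and 0.102) and without replicate 2 of the time compared (0.0737 and 0.114). In 451Lu PLGRKT was -0.14 (adjusted p = 0.45) at 24 h and -0.08 (0.625) at 120 h, and it was called higher at 72 h (0.38, adjusted p = 0.033), as was CD274. That call was lost with no filter on low counts (adjusted p = 0.0694), with DESeq2 (0.194) and without replicate 1 on drug (0.197), replicate 1 at 72 h (0.0559) or replicate 2 at 72 h (0.21). JAK2, at -465.5 kb, was lower in 5 of the 6 comparisons, with -0.21 (adjusted p = 0.0507) in A375 at 48 h. The call on JAK2 in A375 at 24 h (-0.21, 0.0439) was lost with RLE scaling (0.0676), the joint fit (0.129) and DESeq2 (0.408). It was also lost without replicate 1 or 2 on drug (0.124 and 0.126) and without replicate 1 at 24 h (-0.02, 0.878). The widest changes in the window were at MLANA, a melanocyte differentiation gene 440.3 kb after CD274, and IL33, an alarmin gene 765.3 kb after it. MLANA fell in all 6 comparisons, with log2 changes of -0.53, -1.94 and -4.46 in A375 and -2.26, -6.02 and -7.18 in 451Lu. IL33 had 48, 492 and 40 reads in A375 at 6, 24 and 48 h, against 1 on drug, and 41, 133 and 985 reads in 451Lu at 24, 72 and 120 h, against 21 on drug. Its 24 h call in 451Lu (1.30) was lost when any 1 of the 4 libraries compared was left out (adjusted p from 0.0642 to 0.158). UHRF2, a ubiquitin ligase gene 962.6 kb after CD274, rose in all 6 comparisons, by 0.88 to 1.32.

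**Figure D5:**
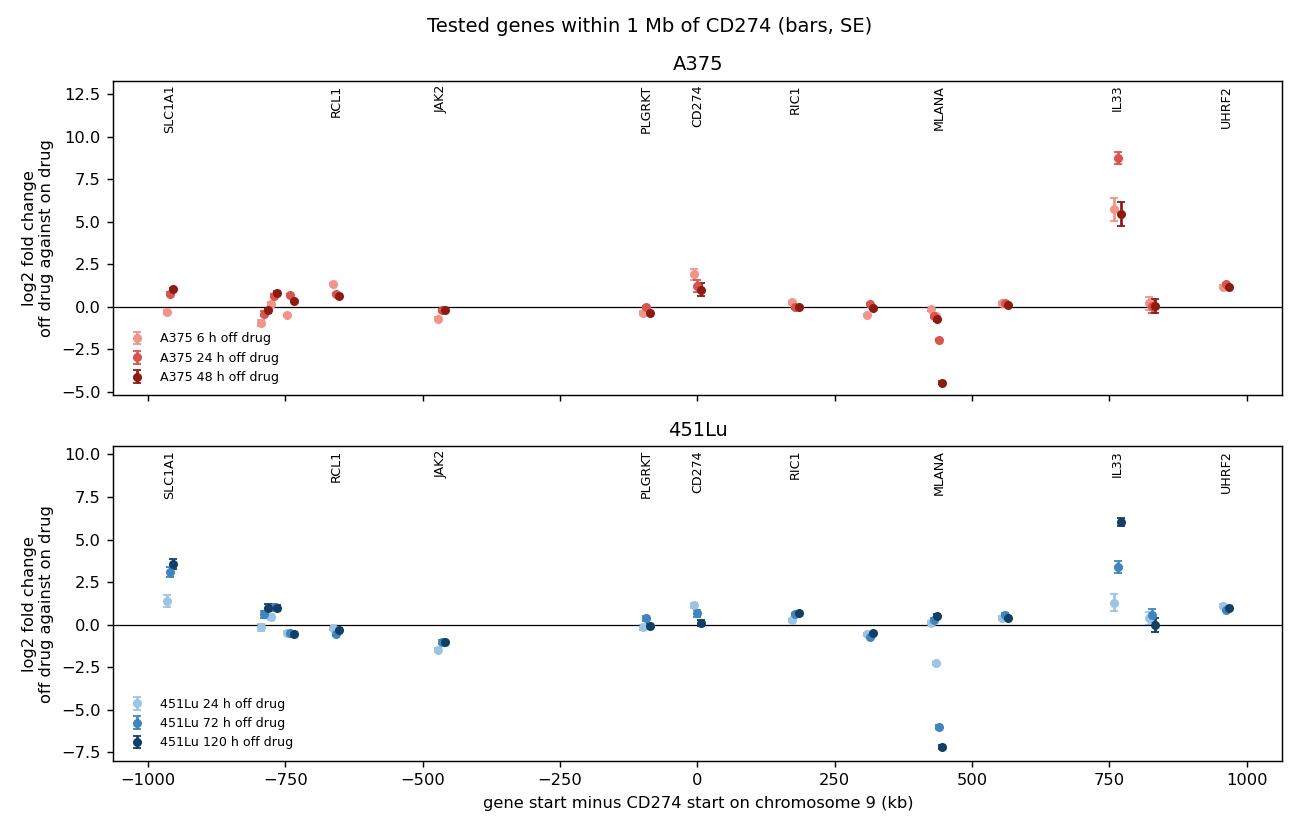
Log2 fold change, off drug against on drug (points, edgeR estimates; bars, SE), of the 16 tested genes that start within 1 Mb of CD274 on chromosome 9, against the distance of their start from that of CD274 in kb, for A375 (top) and 451Lu (bottom) at 3 times each. MLANA and IL33 reach farthest from 0, in opposite directions; the IL33 points of A375 rest on 1 read on drug, so their height depends on the fit. JAK2 lies below 0 in all 6 comparisons.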

How the data were processed

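Total RNA of 16 libraries (2 lines, 4 groups each, 2 libraries a group) was sequenced. The authors deposited raw read counts per Ensembl gene; TopHat2 2.1.0, Bowtie 1.0.0 and GRCh38 are named per the submitters' processing notes. The sources used here give no counter, annotation release or strand setting. Counts were analysed with edgeR 4.0.16 in R 4.3.3: TMM scaling, filterByExpr (minimum count 10, minimum total 15) and the quasi-likelihood test, per line (14449 and 13851 genes) or over both lines (15481 genes), with Benjamini-Hochberg adjustment over all genes tested and a threshold of 0.05. An SE is the absolute log2 fold change over the square root of F. Intervals on ratios are exact at 95% and, like the floor of 3 counts, cover counting error only. Alternatives were RLE scaling, no filter, DESeq2 1.42.0, a test against a fold change of 1.5, a replicate block, a joint fit and leaving out each library. The edgeR step was also run on simulated counts, with changes set only in genes above 1 CPM on drug. In A375 at 6 h (13836 genes) it recovered 85.6% of 97 genes changed by 1 log2 unit and 100% of 103 changed by 2, with 9 false calls. In 451Lu at 24 h (12871 genes) it recovered 98% of 98 and 100% of 102, with 10 false calls. With so few changed genes, the simulation does not test scaling where most genes change, nor genes below 1 CPM on drug.

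The members and lists were chosen with earlier results of these data known. Named were the 8 members, from each list at most the 4 called genes with the largest change in a comparison, the genes most like each member in course and the genes within 1 Mb of CD274; a gene named in one comparison is given in the others too. Whether the libraries of a group are separate cultures is not stated in the labels; the p-values therefore reflect the spread between these samples alone, which may be technical. No 2 libraries were identical. Lengths came from GENCODE 29 and promoter windows from RefSeq. Because TMM assumes balanced change, values are relative to other genes, not RNA per cell.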

Additional observations from a re-analysis of the deposited data

Results flagged for a closer look

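The change at 24 h off drug differed between the lines for 5 members, by a test of the difference itself in a joint edgeR fit of both lines. The difference in log2 change, A375 minus 451Lu, was 0.79 ± 0.10 for CD276 (adjusted p = 4.19e-07), where A375 changed by 1.66 and 451Lu by 0.94. It was 0.79 ± 0.09 for PVR (adjusted p = 1.26e-07), where A375 changed by 1.72 and 451Lu by 0.99. CD47 differed by 0.55 ± 0.09 (adjusted p = 1.18e-05), with 0.19 in A375 and -0.30 in 451Lu. LGALS3 differed by 0.49 ± 0.09 (adjusted p = 4.99e-05), with 0.05 in A375 and -0.38 in 451Lu. TNFRSF14 differed by -1.77 ± 0.14 (adjusted p = 1.3e-10), with -2.99 in A375 and -1.16 in 451Lu. The values of each line come from its own fit. Line, drug and dose cannot be told apart in these differences.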

How the results depend on the processing

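Of 732 alternative values of the 72 results on members, 663 kept their direction and side of the threshold, 62 kept their direction and lost the call, and 7 changed sign, all 7 of results that were not called. CD47 in A375 at 6 h against on drug (0.01) was -0.01 with no filter, and with a library left out ran from -0.02 (without replicate 2 at 6 h; 0 without replicate 1 on drug) to 0.05. CD47 in A375 at 48 h against 24 h (0.04) ran from -0.05 (without replicate 1 at 48 h; -0.03 without replicate 1 at 24 h) to 0.12. CD274 in 451Lu at 120 h (0.10) ran from 0 (without replicate 1 on drug) to 0.22, and PVR in 451Lu at 72 h against 24 h (0.10) from -0.01 (without replicate 1 at 72 h) to 0.20. The cause was not tested. A test against a fold change of 1.5 asks for a larger change by construction, and 27 calls on members were lost under it. In A375 it called 1 of 6 at 24 h against 6 h and 1 of 3 at 48 h against 24 h. In 451Lu it called 1 of 5 at 72 h against 24 h and 0 of 5 at 120 h against 72 h. For the line difference at 24 h it called 3 of 5. Against on drug in A375, LGALS3 at 6 h, CD47 at 24 h, and CD274 and CD47 at 48 h lost their calls. In 451Lu, CD47 and LGALS3 at 24 h, CD274 at 72 h and CD47 at 120 h lost theirs. The on-drug call on PVR between the lines was lost as well. Leaving out a library gave 3 to 4 members in 451Lu at 120 h against 72 h, against 5.

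Deviations of same-numbered libraries correlated at -0.039 to 0.023 in A375 and at -0.019 to 0.01 between on-drug and off-drug 451Lu groups, but at 0.133 to 0.137 among the 3 off-drug groups of 451Lu, a hint from the data that numbers are shared there; the labels state no pairing. With the replicate number as a block, 7453 against 7126 genes were called in 451Lu at 72 h against 24 h and 5041 against 4531 at 120 h against 72 h. Under the block PVR in A375 at 48 h against 24 h was 0.14 with an adjusted p of 0.053, and no other member lost or gained a call. The A375 24 h calls of the CD274 neighbours JAK2 (adjusted p = 0.0583) and ERMP1 (0.059) were also lost under it. Over all genes, the test against 1.5-fold called 4566, 4257 and 4525 genes in A375 at 6, 24 and 48 h against 10589, 10486 and 10493, and 2373, 4387 and 5688 in 451Lu at 24, 72 and 120 h against 7491, 9371 and 10224. For the steps it called 4081, 215, 1768 and 550 genes against 10080, 4318, 7126 and 4531, and between the lines 7054 against 11955 on drug and 2722 against 7642 at 24 h. DESeq2 called 2221 in A375 at 48 h against 24 h and 2975 in 451Lu at 120 h against 72 h, where leaving out replicate 2 at 72 h gave 2851. Depth limits CD274, PDCD1LG2, LGALS9 and TNFSF14, whose on-drug groups in A375 held 25, 0, 4 and 0 reads.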
